A study of Mus musculus with 9 samples.

Results

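The mitochondrial genome transcripts are the 37 genes of the count table whose mouse symbol starts with mt-, matched by Ensembl identifier among 55416 genes in all. They comprise 13 mRNAs, 2 rRNAs and 22 tRNAs, and every one of them was found in the table. The study used Cas9-expressing C57BL/6J mice, labelled as 8 to 10 weeks of age, injected in the interscapular brown fat with AAV8, an adeno-associated virus that delivers genes to cells. AAV8-UCP1 sgRNA, a guide RNA against Ucp1, was given to 4 animals by the sample titles, and AAV8-Control sgRNA to 5. All groups carried Cas9, received AAV8 and were housed at 22 °C for 14 days before RNA was taken from the fat. The promoter that drives Cas9 was not stated, and the tissue holds cells other than brown adipocytes. The labels speak both of total RNA and of mRNA, and whether libraries were made from polyadenylated RNA was not stated.

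The count table has 9 libraries, whose column names end in BAT but match 0 of the sample titles. They were therefore taken as brown fat libraries with no guide assigned, are lettered library A to library I in the order of the table, and were not compared between guides. Each value below is given by library, or as the lowest, median and highest of the 9.

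The mitochondrial genome is a small circle that encodes subunits of respiratory complexes I, III and IV and of ATP synthase, together with the rRNAs and tRNAs of the organelle's own ribosomes. Both strands are copied into long precursors, which are cut apart largely at the tRNAs that lie between the other genes. The precursor from the light-strand promoter yields mt-Nd6 and 8 tRNAs, and the heavy-strand precursor yields the other 28 members. In brown fat, where mitochondria are densely packed and burn fat to make heat, these transcripts are among the most abundant RNAs of the cell.

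Several sequences bear on what could be counted for these genes. Where a stretch of mitochondrial DNA has also been inserted into a chromosome, reads from either place have the same letters. The GENCODE M21 annotation (build GRCm38) lists 7 such copies side by side on chromosome 1, between bases 24611535 and 24616197, all typed as unprocessed pseudogenes. They match bases 6390 to 11042 of the mitochondrial genome, a stretch of 4653 bases. The submitters' processing notes name GRCm39, so these positions only locate the copies in the older build. The copy of mt-Co1 begins inside that gene and matched it at 482 of 483 bases. The first 60 aligned bases are shown with the mismatch in capitals. It is A1066T, counted from the first base of mt-Co1 with the mitochondrial base first.

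mt-Co1, bases 1063 to 1122: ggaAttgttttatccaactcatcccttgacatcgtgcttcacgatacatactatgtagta

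Gm29216, bases 10 to 69: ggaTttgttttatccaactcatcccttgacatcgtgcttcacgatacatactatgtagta

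The mt-Co3 copy, Gm28437, had no mismatch over 783 bases. The first 60 bases of mt-Co3, with the start codon in capitals, are therefore also those of the copy:

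mt-Co3, bases 1 to 60: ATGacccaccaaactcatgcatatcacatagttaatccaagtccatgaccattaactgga

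Genes also overlap within the mitochondrial genome itself. The last 43 bases of mt-Atp8 are the first 43 of mt-Atp6, shown with the start codon of mt-Atp6 in capitals:

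mt-Atp8, bases 162 to 204: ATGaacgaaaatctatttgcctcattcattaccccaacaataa

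Likewise mt-Nd4l and mt-Nd4 share 7 bases, and mt-Nd5 and mt-Nd6 share 14 bases on opposite strands. How reads in overlaps or with several matches were counted is not given in the sources used here.

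Mitochondrial transcripts took between 22.3% and 33.9% of all counts of a library, with a median of 31.5%. The share was 33.8% in library A, 31.5% in library B, 31.8% in library C, 33.2% in library D and 33.9% in library E. It was 25.8% in library F, 26.5% in library G, 24.9% in library H and 22.3% in library I. Of the 11 genes with the most counts over all libraries, 8 were mitochondrial: mt-Co1, mt-Cytb, mt-Nd2, mt-Nd1, mt-Nd5 and mt-Nd4 held the top 6 places. The exact Clopper-Pearson 95% interval of a share spanned at most 0.0472 percentage points, so counting error, which is all it covers, was far below the differences between libraries. In bulk tissue, fewer cells rich in mitochondria and less mitochondrial RNA per cell cannot be told apart.

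The mRNAs made up nearly all of this share. They took 21.0% to 31.6% of the library counts, and the rRNAs 1.34% to 2.86%. The tRNAs added 296 to 961 counts per library, or 17.7 to 54.1 CPM (counts scaled to a common library total). Per 100 mRNA counts there were 6.37 to 9.19 rRNA counts, with the 2 highest values in library E and library B (9.19 and 8.90).

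Ucp1, the target of the guide, encodes the uncoupling protein that lets brown adipocyte mitochondria release energy as heat. Its level was 3848 CPM in library A, 4620 in library B, 3937 in library C, 2704 in library D and 3652 in library E. It was 396 CPM in library F, 606 in library G, 445 in library H and 459 in library I. On the log2(CPM + 1) scale the widest step between neighbouring values was 60.9% of their range, above the limit of 50% set for separate clusters. With 5 libraries above the step and 4 below it, under the 6 needed for a correlation, no pooled correlation of any member with Ucp1 was computed.

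**Figure D1:**
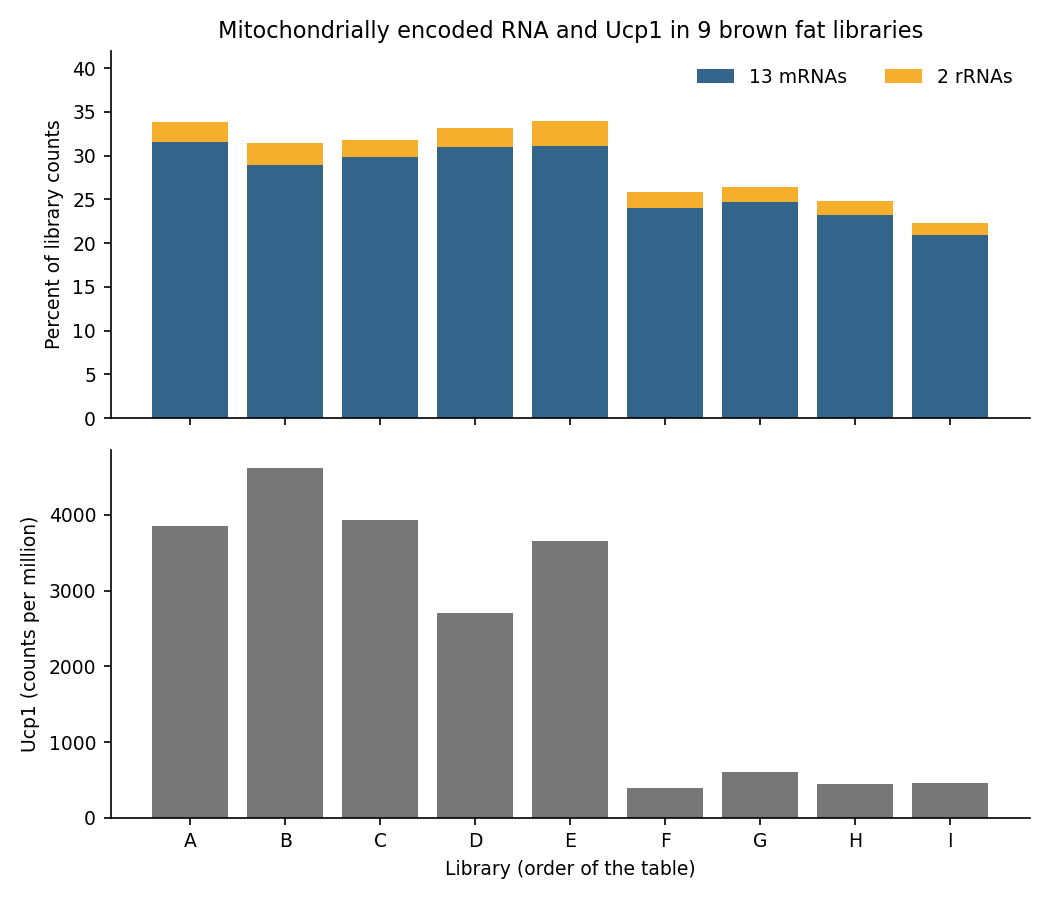
Percent of library counts from the mitochondrial mRNAs and rRNAs (upper bars, stacked) and Ucp1 in CPM (lower bars) in each of the 9 libraries, in the order of the table. The mitochondrial share runs from 22.3% to 33.9%, and Ucp1 from 396 to 4620 CPM; which guide each library received is not known here.

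The libraries held 15460829 to 17909534 counts. No pair of the 9 agreed within sampling noise, with a mean chi-square of 10.9 or more per gene over the 36 pairs. All 9 brown adipocyte markers had counts in every library, and their summed level ran from 9654 to 13124 CPM. Summed skeletal muscle markers ran from 156 CPM (library B) to 2912 CPM (library E), an 18.7-fold range, with all 6 detected in every library. All 4 endothelial markers were detected in every library, and their sum divided the libraries as the mitochondrial share did, with 422 to 551 CPM in libraries A to E and 355 to 385 CPM in libraries F to I. The other marker sums did not divide them in this way, but the brown adipocyte sum includes Ucp1. Of that sum, Ucp1 was 2704 to 4620 CPM in libraries A to E and 396 to 606 CPM in libraries F to I. By CPM the rest of the brown adipocyte sum was lower in each of libraries A to E than in any of libraries F to I. The CPM total includes the mitochondrial counts, and relative to nuclear counts alone the libraries overlapped. Fibroblast markers summed to 100.8 to 190 CPM, erythroid markers to 189 to 358 and macrophage markers to 26.4 to 76.3, and lymphocyte markers did not exceed 1.68. The part that endothelial cells, muscle or other tissue had in the mitochondrial values was not tested.

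The 13 mRNAs fell into an abundant set of 6 and a scarce set of 7. Levels between genes are given as CPM per kilobase of annotated gene length. The 6 abundant mRNAs held 99.94% to 99.98% of all mitochondrial mRNA counts. Their lowest value in any library, 14183 CPM per kilobase (mt-Nd4 in library I), was 131 times the highest value of a scarce mRNA, 108 CPM per kilobase (mt-Co2 in library H).

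**Figure D2:**
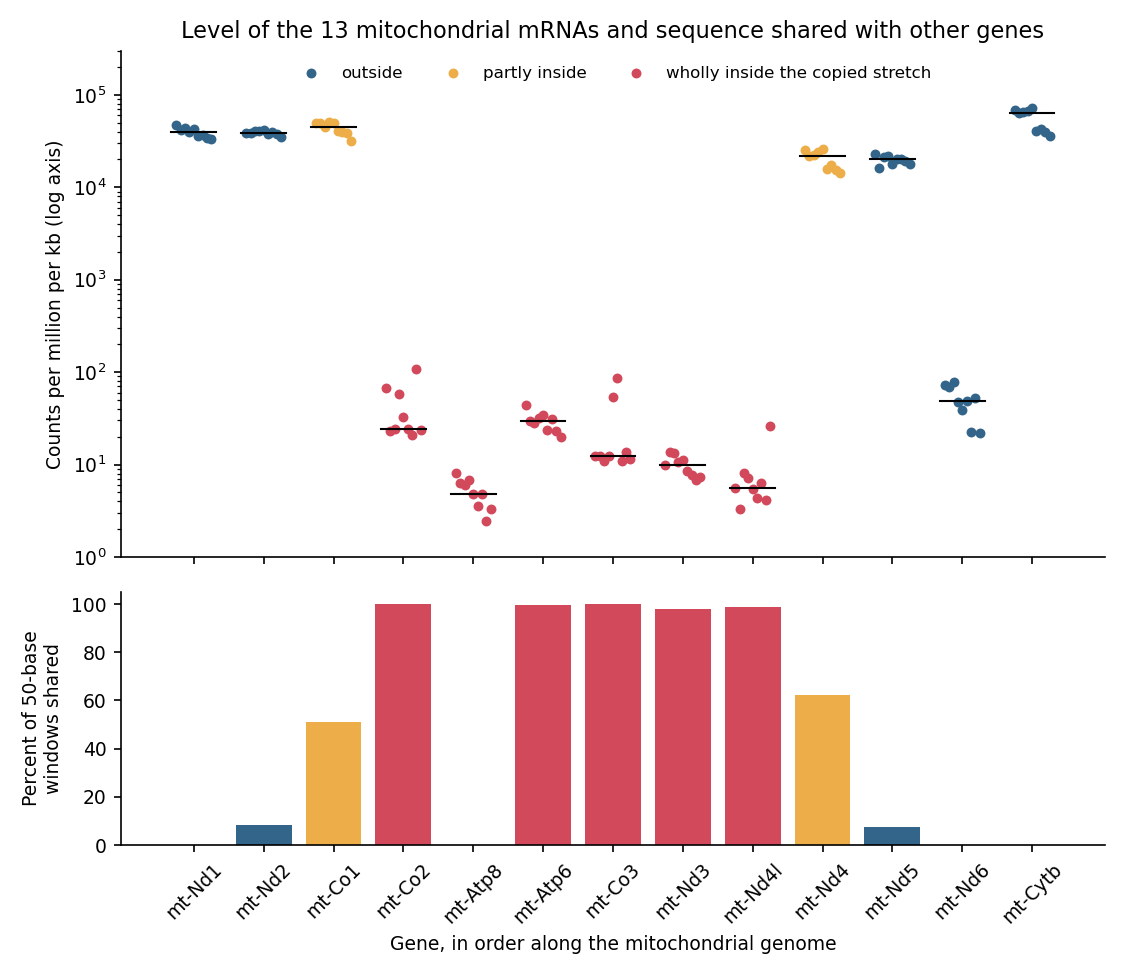
Upper panel, level of each mitochondrial mRNA in CPM per kilobase on a log axis, 1 point per library, with black lines for medians, in gene order along the mitochondrial genome. Lower panel, percent of each gene's 50-base windows that also occur in another annotated transcript; the 6 genes wholly inside the stretch copied on chromosome 1 have the lowest median levels, and mt-Atp8 shares 0% of its windows with an annotated transcript.

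Cytochrome b, encoded by mt-Cytb, is the only mitochondrially encoded subunit of complex III, which passes electrons to cytochrome c. mt-Cytb had the highest median, 63364 CPM per kilobase, and lay above mt-Co1 in 9 of 9 libraries although the ranges overlapped. Its level was 77545 CPM in library A, 72488 in library B, 75300 in library C, 77155 in library D and 81752 in library E. It was 47044 CPM in library F, 48701 in library G, 44907 in library H and 40554 in library I. Libraries A to E lay above libraries F to I, a 2.02-fold range in all.

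Complex IV, cytochrome c oxidase, reduces oxygen to water and takes its catalytic core from mt-Co1, mt-Co2 and mt-Co3. mt-Co1, which carries the haem and copper site where oxygen is reduced, had a median of 44941 CPM per kilobase (31427 to 50641). mt-Co2, which receives electrons from cytochrome c, had 769, 254, 271, 686, 348, 295, 249, 1313 and 284 counts in the order of the table, a median of 24.1 CPM per kilobase. Libraries H, A and D were the high ones. mt-Co3 had 163, 157, 143, 165, 648, 1208, 146, 190 and 158 counts in the same order, a median of 12.4 CPM per kilobase, and library F and library E stood above the other 7.

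Complex I, the NADH dehydrogenase that feeds electrons into the chain, has 7 mitochondrially encoded subunits. mt-Nd1 and mt-Nd2 had medians of 39827 and 38849 CPM per kilobase, and mt-Nd1 was the higher in only 4 of 9 libraries (A, B, C and E). mt-Nd4 and mt-Nd5 had medians of 22029 and 20002, with mt-Nd4 the higher in 5 of 9. Those 5 were libraries A to E, and mt-Nd5 was the higher in each of libraries F to I. In both pairs the ranges over the 9 libraries overlapped, whereas mt-Nd2 exceeded mt-Nd4 in 9 of 9 with ranges apart. mt-Nd3 had 42 to 77 counts per library and a median of 9.80 CPM per kilobase. mt-Nd4l had 16 to 40 counts in 8 libraries and 139 in library I, with a median of 5.64 CPM per kilobase.

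ATP synthase, which makes ATP from the proton gradient that Ucp1 dissipates, has the membrane subunits mt-Atp6 and mt-Atp8. mt-Atp6 had 243 to 501 counts per library, with a median of 29.4 CPM per kilobase. mt-Atp8 had the fewest counts of any mRNA, 9 to 28 per library, and a median of 4.84 CPM per kilobase. Among the scarce mRNAs the ranges of all neighbours in the order overlapped, and mt-Atp6 lay above mt-Co2 in only 4 of 9 libraries.

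The scarce mRNAs apart from mt-Nd6 were the 6 that lie wholly inside the stretch copied on chromosome 1. Of the distinct 50-base windows of each gene, 100% of mt-Co2, 99.5% of mt-Atp6, 99.9% of mt-Co3, 98.0% of mt-Nd3 and 98.8% of mt-Nd4l also occurred in another annotated transcript. mt-Atp8 shared 0% by this measure, but it sits between mt-Co2 and mt-Atp6, where 230 bases separate those genes in the mitochondrial genome and 233 bases separate their copies, Gm28661 and Gm10925, on chromosome 1. The annotation names no copy of mt-Atp8 in that interval. The last 43 bases of mt-Atp8, which open mt-Atp6, do lie in Gm10925, but they are fewer than the 50 bases of a window.

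The abundant mRNAs lay outside the stretch or only partly inside it. The shared windows were 51.1% for mt-Co1 and 62.2% for mt-Nd4, the 2 genes at its ends, 8.19% for mt-Nd2, 7.61% for mt-Nd5 and 0% for mt-Nd1 and mt-Cytb. Not all were shared with chromosome 1. Of the 765 shared windows of mt-Co1, 430 occurred in Gm29216 and 411 in Gm13340, some of them in both. Gm13340 is a pseudogene on chromosome 2 that matched mt-Co1 at 97.6% of bases. Those of mt-Nd2 were in Gm13339, also on chromosome 2, and those of mt-Nd5 in Gm4076 (chromosome 13) and Gm11407 (chromosome 4). When levels were given per 1000 windows found in no other annotated transcript, mt-Co1 took first place with a median of 94984 CPM against 66199 CPM for mt-Cytb, and mt-Nd4 moved to rank 3 with 60471 CPM. These values are for windows of 50 bases. With windows of 100 bases mt-Co1 and mt-Cytb were nearly level, at 69433 and 69367 CPM. The whole count of a gene was divided by its unshared windows, which holds only if no read within shared windows was counted. Whether that was so is not known here, and mt-Co2, with 100% of its windows shared, still had 249 to 1313 counts. The values are therefore not corrected levels. The tRNAs of the stretch had 3 counts in all over the 9 libraries for 5 genes, against 4647 counts for the 17 tRNAs outside it. In all, no member wholly inside the stretch exceeded 1313 counts in any library. The 5 tRNAs of the stretch, like mt-Atp8, shared 0% of their windows with an annotated transcript, and the bases between the copies were not searched. The part of shared sequence in these levels was not tested. The counted levels of these 11 members, and of mt-Co1 and mt-Nd4, are uncertain for that reason.

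Reads were counted to the copies on chromosome 1 in every library. Each copy had 0 mismatches to its mitochondrial gene over the aligned bases, except Gm29216 with 1. Over nearly all of these bases, reads of a copy and reads of mitochondrial RNA cannot be told apart by sequence. Gm28661 (mt-Co2) had 203 to 469 counts, Gm28438 (mt-Nd3) 13 to 31 and Gm10222 (mt-Nd4l) 10 to 26. The other copies stood high in 1 or 2 libraries. Gm10925 (mt-Atp6) had 18900 counts in library A, 5733 in library B and 307 to 956 in the other 7. Gm28437 (mt-Co3) had 5239 counts in library A, 1196 in library I and 123 to 508 elsewhere, and Gm28439 (mt-Nd4) had 6934 in library A and 126 to 513 elsewhere. Gm29216 (mt-Co1) had 2540 counts in library H and 153 to 260 elsewhere.

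**Figure D3:**
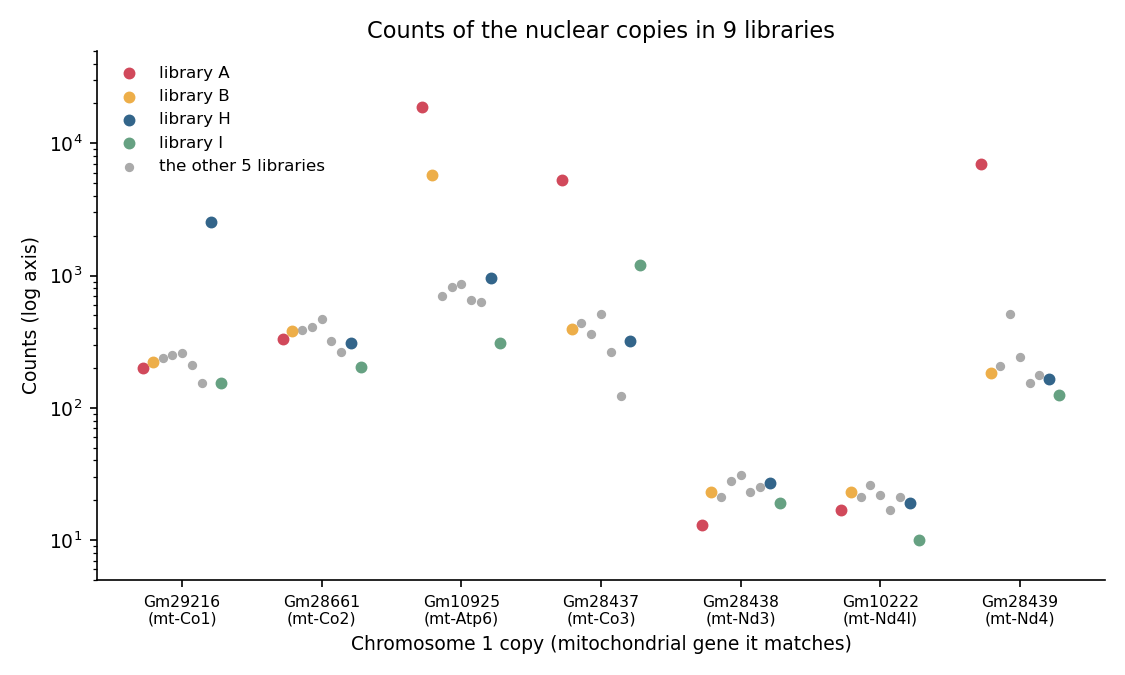
Counts, on a log axis, of the 7 chromosome 1 copies in the 9 libraries, with the mitochondrial gene each copy matches in brackets. Library A is high for Gm10925, Gm28437 and Gm28439 (18900, 5239 and 6934 counts), and library H for Gm29216 (2540 counts). Reads of a copy and of its mitochondrial gene have the same letters over nearly all aligned bases.

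mt-Nd6, the complex I subunit encoded by the light-strand precursor, was scarce without lying in the stretch and with 0% of its windows shared. It had 629, 578, 675, 420, 314, 455, 202, 482 and 202 counts in the order of the table, a median of 49.0 CPM per kilobase. Its median level was lower than that of mt-Nd5, its overlapping neighbour, by a factor of 409. Both lowest values were in library G and library I. In human cells the ND6 mRNA is known to lack the poly(A) tail that the other mitochondrial mRNAs carry, which is given here as background only. The messages also differ in their bases. mt-Nd6 is 28.1% G and 5.97% C, and mt-Cytb is 12.2% G and 26.9% C. Their first 90 bases are shown with each G in capitals.

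mt-Nd6, bases 1 to 90: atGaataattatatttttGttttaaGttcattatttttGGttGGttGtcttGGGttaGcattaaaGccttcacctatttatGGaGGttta

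mt-Cytb, bases 1 to 90: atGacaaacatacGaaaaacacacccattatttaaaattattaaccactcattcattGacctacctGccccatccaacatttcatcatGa

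The 9 members from the light-strand precursor together took 0.00729% to 0.0175% of mitochondrial counts (332 to 824 counts per library), with the highest share in library H and the lowest in library G. mt-Nd6 alone was 0.00475% to 0.0137% of the mRNA counts. Among tRNAs the light-strand genes took far more, 21.1% to 41.97% of tRNA counts with a median of 29.8%. The strand setting of the counting is not given in the sources used here, so reads of mt-Nd6 and of RNA copied from the other strand of the same place cannot be told apart here.

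The 2 rRNAs form the core of the small and large subunits of the mitochondrial ribosome. mt-Rnr1 had 3504 to 8985 CPM (median 6196) and mt-Rnr2 9863 to 19577 CPM (median 12810). For both, library E was the highest library and library I the lowest. Per kilobase their medians, 6488 and 8097 CPM, lay between the abundant and the scarce mRNAs.

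Of the 22 tRNAs, 12 had any count and 10 had none in any library. A count of 0 allows a counted level of up to 0.168 to 0.194 CPM, taking 3 counts as the limit. That limit covers counting error only and does not bound the amount of tRNA in the tissue. How well RNAs of their length, 59 to 75 bases, entered the libraries is not known here. The tRNAs with none were mt-Tf, mt-Tl1, mt-Tn, mt-Tc, mt-Ts1, mt-Tg, mt-Tr, mt-Th, mt-Ts2 and mt-Tl2, 7 of which lie outside the copied stretch. Of the 12 with counts, 6 had at least 10 counts in at least 2 libraries.

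The threonine tRNA mt-Tt, next to mt-Cytb, had the most: 129, 135, 100, 195, 174, 248, 354, 397 and 387 counts in the order of the table. Its median was 11.4 CPM, and libraries F to I were above libraries A to E, the reverse of mt-Cytb itself. The glutamine tRNA mt-Tq, on the light strand, had 78 to 231 counts and its highest value in library H. The isoleucine tRNA mt-Ti, which overlaps it by a few bases on the other strand, had 9 to 121 counts. The remaining counted tRNAs were mt-Tm (18 to 108 counts), mt-Tw (11 to 55) and mt-Tp (11 to 54). The sequences of the most counted tRNA and of the phenylalanine tRNA mt-Tf, the first gene of the mitochondrial genome and one with no counts, are of nearly the same length, 67 and 68 bases.

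mt-Tt, whole gene: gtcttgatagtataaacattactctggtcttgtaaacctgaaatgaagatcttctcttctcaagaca

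mt-Tf, whole gene: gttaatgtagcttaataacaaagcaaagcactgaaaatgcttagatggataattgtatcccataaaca

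**Figure D4:**
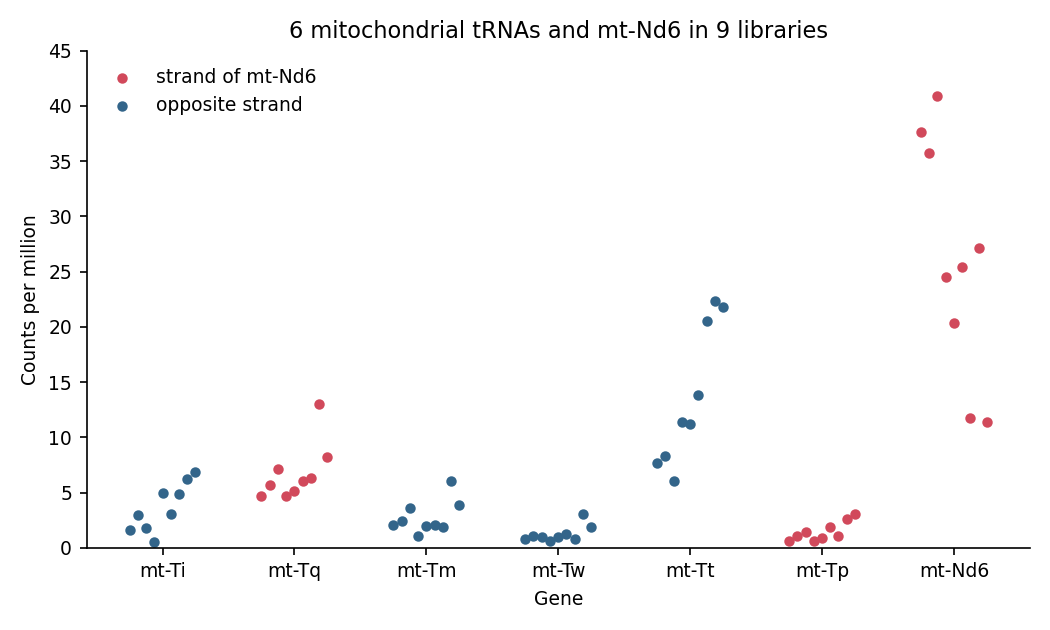
Level in CPM of the 6 tRNAs with at least 10 counts in at least 2 libraries and of mt-Nd6, 1 point per library from A to I, coloured by strand. mt-Tt spans 6.06 to 22.3 CPM and mt-Nd6 spans 11.4 to 40.9 CPM.

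The abundant members did not vary to the same extent. The ratio of the highest to the lowest CPM over the 9 libraries was 1.20 for mt-Nd2, 1.42 for both mt-Nd1 and mt-Nd5, 1.61 for mt-Co1, 1.82 for mt-Nd4, 1.98 for mt-Rnr2, 2.02 for mt-Cytb and 2.56 for mt-Rnr1. The median ratio over the 70 nuclear genes with a median of at least 1000 CPM was 1.53, with quartiles of 1.37 and 1.85. Among the scarce mRNAs, ratios by CPM ran from 2.02 (mt-Nd3) and 2.19 (mt-Atp6) to 7.92 (mt-Nd4l) and 7.96 (mt-Co3), at counts where sampling error is larger.

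The mix of the 8 abundant transcripts therefore differed between libraries. mt-Cytb was 22.9%, 23.0%, 23.7%, 23.3%, 24.1%, 18.2%, 18.4%, 18.1% and 18.2% of their sum in the order of the table. mt-Nd2 was 11.9%, 12.8%, 13.4%, 12.9%, 12.9%, 15.0%, 15.4%, 15.9% and 16.3% of it. Libraries F to I thus had the lowest mt-Cytb and the highest mt-Nd2 shares, without overlap with the other 5.

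The ratio of mt-Cytb to mt-Nd2 counts, which no scaling of the libraries can change, was 1.93, 1.80, 1.77, 1.81, 1.87, 1.21, 1.20, 1.14 and 1.11 in the order of the table. mt-Nd4 relative to mt-Nd2 split the libraries in the same way, with 0.727 to 0.857 in libraries A to E and 0.536 to 0.584 in libraries F to I. Both mt-Cytb and mt-Nd2 lie outside the copied stretch, with 0% and 8.19% of their windows shared. mt-Co1 relative to mt-Nd2 did so too, with 1.63 to 1.91 in libraries A to E and 1.33 to 1.60 in libraries F to I. As a share of the 8-gene sum, mt-Co1 ran from 21.8% to 24.5% and the libraries overlapped.

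mt-Nd5 was 12.4%, 9.35%, 12.3%, 12.1%, 9.53%, 14.1%, 14.1%, 14.0% and 14.7% of the sum in the order of the table. Libraries F to I had the highest shares, without overlap with libraries A to E, and the ratio of mt-Nd5 to mt-Nd4 counts divided them likewise (1.57 to 1.68 in libraries F to I and 0.907 to 1.26 in libraries A to E). Within libraries A to E, library B and library E had the lowest mt-Nd5 shares. mt-Rnr2 was 5.82% and 5.77% in library B and library E, against 4.03% to 4.84% in the others, and mt-Rnr1 was likewise highest in both. The ratio of mt-Rnr2 to mt-Nd5 counts was 0.622 and 0.605 in library B and library E and 0.301 to 0.384 elsewhere. These libraries had the lowest and the highest summed muscle markers (156 and 2912 CPM).

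**Figure D5:**
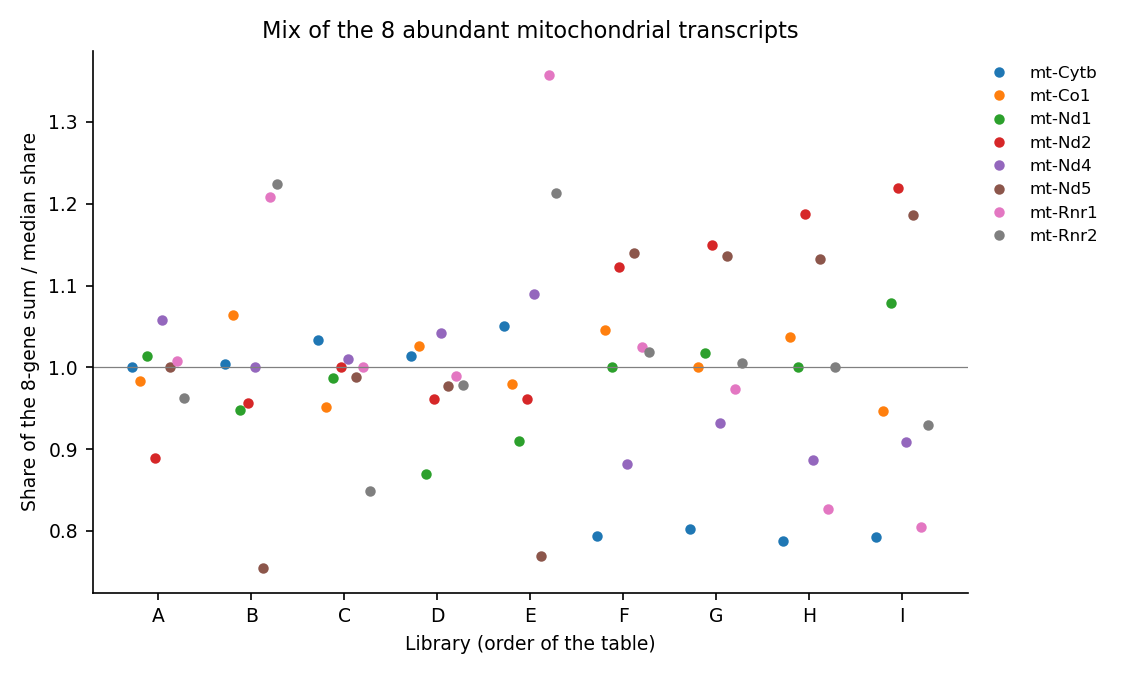
Share of each of the 8 abundant mitochondrial transcripts in their summed counts, divided by that transcript's median share, for each library in the order of the table. mt-Cytb lies lowest and mt-Nd2 and mt-Nd5 highest in libraries F to I, and mt-Nd5 lies lowest with the rRNAs highest in library B and library E.

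Correlations among members over the 9 libraries are given as a description, since the points share library, depth and scaling. They pool libraries A to E with libraries F to I, which mt-Cytb and the mitochondrial share separate without overlap. Neither set has the 6 libraries needed for a value of its own. The part of that division in these values was not tested. Levels were taken as nuclear CPM, scaled to the nuclear counts alone, so that one mitochondrial gene could not lower another through the total. The 6 abundant mRNAs had a median pairwise Spearman's rho of 0.88 (Pearson's r 0.94), positive in 15 of 15 pairs. mt-Cytb and mt-Nd4 ranked the 9 libraries identically (r 0.99), and mt-Rnr1 and mt-Rnr2 nearly so (rho 0.98, r 0.97). mt-Nd5 stood apart, with rho of 0.53 to 0.62 (r 0.59 to 0.67) with the other abundant mRNAs, 0.30 (r 0.42) with mt-Rnr1 and 0.32 (r 0.32) with mt-Rnr2. Among the 7 scarce mRNAs the median rho was 0.28 and the median r 0.05, positive by rho in 16 of 21 pairs. By whole-library CPM the median rho was 0.10 (r -0.01), positive in 12 of 21.

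Genes of the nucleus that copy, cut and stabilise mitochondrial RNA were described in the same way, by rho with the summed mitochondrial mRNA per nuclear count. That sum ran from 27.0 to 47.7 counts per 100 nuclear counts, and the widest step between its neighbouring log2 values was 40.2% of their range, between the same 4 and 5 libraries that Ucp1 separates. The rho values below pool both sets, and neither set has the 6 libraries needed for a value of its own. Over the 14194 nuclear genes with at least 10 counts in at least 2 libraries, the median rho was 0.22, and 65.4% of genes were positive.

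Of 16 genes for transcription and maintenance of mitochondrial DNA, 15 passed the count minimum, and their median rho was 0.02 with 8 positive. Polg, the catalytic subunit of the mitochondrial DNA polymerase, had the highest rho (0.67, r 0.68), followed by Top1mt, a mitochondrial topoisomerase (0.58, r 0.53), and Mgme1, a nuclease of mitochondrial DNA (0.40, r 0.42). Polrmt, the mitochondrial RNA polymerase, had the lowest (-0.80, r -0.81), at 41.2 to 76.6 CPM and highest in library I. Tefm, its elongation factor, followed (-0.68, r -0.70), and then Tfb2m, an initiation factor (-0.60, r -0.68).

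Of 20 symbols listed for processing, stability and decay of mitochondrial RNA, 18 were matched and passed the minimum. The others were Prorp and Fastkd4, the second being another name of Tbrg4, which was matched. For the 18 genes the median rho was -0.36 with 14 negative. Rexo2, an exonuclease that clears short RNA fragments, had the lowest rho (-0.83, r -0.90) at 56.8 to 131 CPM. Lrpprc, which protects mitochondrial mRNAs, had -0.78 (r -0.73), and Grsf1, a protein of mitochondrial RNA granules, had -0.77 (r -0.69). Hsd17b10, a subunit of the enzyme that cuts the 5' ends of mitochondrial tRNAs, had the highest (0.67, r 0.76), followed by Fastkd3 (0.28, r 0.17) and Supv3l1, a helicase (0.23, r 0.20).

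Of 24 nuclear subunits of the complexes that also hold mitochondrial subunits, 23 were matched and passed, and their median rho was 0.17 with 19 positive (82.6%). All nuclear genes had a higher median (0.22) and a lower share of positive genes (65.4%). The median ratio of highest to lowest nuclear CPM was 1.38 for the 23 subunits, against 1.44 for the 1733 nuclear genes with a median of at least 100 nuclear CPM. The highest rho values were for Cox8b of complex IV (0.68, r 0.67), Ndufb8 (0.58, r 0.73) and Ndufv1 (0.52, r 0.61) of complex I. The lowest were for Uqcrfs1, the iron-sulphur subunit of complex III (-0.52, r -0.40), Ndufs1 (-0.27, r -0.19) and Uqcrc2 (-0.18, r -0.22). Cox4i1, the nuclear subunit that pairs with mt-Co1 early in assembly, ran from 641 to 902 CPM (rho 0.17, r 0.37).

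Among 2523 nuclear genes with a median of at least 50 CPM, the 5 most like the summed mitochondrial mRNA over the 9 libraries were Cavin1 (rho 0.97, r 0.93), Klf2 (0.97, r 0.93), Med12 (0.95, r 0.96), Ripor1 (0.95, r 0.92) and Arhgef1 (0.95, r 0.92). Cavin1, a coat protein of caveolae, had 254 to 401 nuclear CPM, and Klf2, a transcription factor, had 31.3 to 107 nuclear CPM.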

How the data were processed

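RNA of 9 brown fat samples was sequenced. The authors deposited whole-number read counts per Ensembl gene, with no summary rows. FastQC, STAR, DESeq2 and the build GRCm39 appear in the submitters' processing notes, without versions or roles, and no source used here gives the annotation, strand setting or treatment of multiply matching reads. Columns were assigned by the BAT in their names to the tissue alone, which all 9 samples share; this is a judgement, since no name matches a title, and no guide was assigned or tested. The members and lists were chosen with earlier results of these data known. A table of gene names matched 52083 of 55416 identifiers, and lengths and sequences came from GENCODE M21 (GRCm38). Counts were divided by column totals (CPM), by TMM (edgeR 4.0.16), by DESeq2 1.42.0 size factors or by nuclear counts. Correlations used log2(level + 1), tested on simulated data. Windows of 50, 75 and 100 bases were searched on both strands of all other transcripts, and copies were aligned locally (Biopython 1.88). Of the 37 members, 21 had at least 10 counts in at least 2 columns. Named genes were all members, the 3 highest and 3 lowest by rho in each nuclear list, and the 5 nuclear genes most like the mRNA sum; Cox4i1 and the copies were added after their values were seen.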

Additional observations from a re-analysis of the deposited data

Results flagged for a closer look

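Among 35 per-library values examined, 6 had an extreme library whose gap to the nearest other exceeded Dixon's 95% limit for 9 values. Chance flags about 1 in 20. Library A was the extreme library for 3 chromosome 1 copies: Gm10925 at 1130.7 CPM (next 355), Gm28439 at 415 CPM (next 30.0) and Gm28437 at 313 CPM (next 67.4). Library H was the extreme library for the copy Gm29216 at 143 CPM (next 16.8) and for mt-Tq at 12.99 CPM (next 8.23). Over nearly all of their aligned bases, reads of the copies cannot be told apart by sequence from mitochondrial reads. Library I was the extreme library for mt-Nd4l at 7.84 CPM (next 2.43). The 6 abundant mRNAs, both rRNAs and the mitochondrial share had no such library.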

How the results depend on the processing

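The median mitochondrial share of 31.5% became 29.7% without the rRNAs and 31.5% over genes past the count minimum, and ran from 28.97% to 31.6% with each library left out in turn. The mRNA share, 28.9% of all counts, became 42.2 counts per 100 nuclear counts, which differs by its denominator. The light-strand share of 0.0128% became 0.0106% for mt-Nd6 among mRNAs and 29.8% for the 8 tRNAs among tRNAs, which are different sums. Without length division, 9 of the 13 mRNAs kept their place in the order. The orders by unshared windows were chosen after seeing the data, cover 8 mRNAs and assume that no read within shared windows was counted. In them mt-Nd4 took rank 3 at 50, 75 and 100 bases, and mt-Co1 took rank 1. Its lead over mt-Cytb narrowed from 94984 against 66199 CPM at 50 bases to 78455 against 67746 at 75 and 69433 against 69367 at 100. The median ratio of highest to lowest level over the 13 mRNAs was 2.02 by CPM, 2.15 by TMM, 2.16 by DESeq2 size factors and 2.37 per nuclear count. The median rho among the 13 mRNAs was 0.32 by CPM, 0.48 by TMM and by DESeq2 size factors, and 0.54 per nuclear count; among the 6 abundant it was 0.70, 0.92, 0.88 and 0.88 in these scalings, and among the 7 scarce 0.10, 0.18, 0.18 and 0.28. The cause was not tested. The widest step between Ucp1 values stayed above 50% of the range in every scaling, at 60.9% to 65.1%, so the planned correlations with Ucp1, their filter and the leaving out of libraries were not run. No paired analysis was possible because the column names carry no replicate number or guide. Depth limits the scarce mRNAs and the tRNAs, whose counts per library were often under 100.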

Other observations

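Placed side by side without averages or a test, since the guide of each library is not known here, Ucp1, the mitochondrial share and the mt-Cytb to mt-Nd2 ratio separated the libraries in the same way. So did the summed endothelial markers, with 422 to 551 CPM in libraries A to E and 355 to 385 CPM in libraries F to I, and their part in the other values was not tested. Library A had 3848 CPM of Ucp1, a share of 33.8% and a ratio of 1.93. Library B had 4620 CPM, 31.5% and 1.80, and library C had 3937 CPM, 31.8% and 1.77. Library D had 2704 CPM, 33.2% and 1.81, and library E had 3652 CPM, 33.9% and 1.87. Library F had 396 CPM, 25.8% and 1.21, and library G had 606 CPM, 26.5% and 1.20. Library H had 445 CPM, 24.9% and 1.14, and library I had 459 CPM, 22.3% and 1.11.

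The summed level of the 22 tRNAs was 17.7, 22.5, 21.5, 19.2, 25.5, 28.9, 35.7, 54.1 and 46.2 CPM in the order of the table, so libraries F to I, with the lowest mRNA shares, had the highest tRNA levels.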
